A study of Rattus norvegicus with 2 samples.

Results

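The 10 genes described here encode secreted or shed signals of epithelial stress and inflammation: the chemokines Cxcl1, Cxcl2, Cxcl10, Ccl2, Ccl20 and Cx3cl1, the IL-6 family cytokines Il6, Lif and Il11, and the macrophage growth factor Csf1. They were picked by name, as all probes whose gene name in the scanner files is one of these symbols, which gave 14 of 45598 probes and 41 of 58717 spots. The cells were IEC6, an untransformed epithelial line from rat small intestine, exposed for 60 min in low-serum medium to sodium trisulfide (Na2S3), an inorganic polysulfide, or to water. The dose is 100 µM Na2S3 in the sample label but 100 mM in the protocol text, and the sources used here do not settle which was used. Total RNA of each group went onto 1 Agilent single-colour (Cy3) array, so there are no replicates, no difference has a replicate check and no p-value is given.

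Chemokines are small secreted proteins that draw leukocytes along a gradient through G-protein-coupled receptors, and gut epithelial cells release them when injured or infected. IL-6 family cytokines share the receptor subunit gp130, which signals through JAK kinases and STAT transcription factors and is restrained by the feedback inhibitor SOCS3. Many of these genes are known to be switched on quickly by NF-kB and AP-1, and their mRNAs are short-lived.

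Of the 10 genes, Cxcl1, Il11, Ccl2, Cxcl10, Cx3cl1 and Csf1 were well above background on both arrays, Lif on the Na2S3 array alone, and Cxcl2, Ccl20 and Il6 on neither. Measured on both arrays were thus 6 of 10 members, beside 48% of 27235 genes with a probe. Cxcl1 (2.79-fold) and Il11 (2.04-fold) passed 2-fold on the higher side after Na2S3, which is 2 of 6 measured members against a background of 0.942% of 13062 measured genes, and 0 members were at least 2-fold lower (background 0.62%). Ccl2 lay just under 2-fold at 1.95-fold, Cxcl10 stood at 1.71-fold, Cx3cl1 at 1.20-fold, and Csf1 was 1.29-fold lower. The 6 members had a median log2 ratio of 0.87, beside -0.04 for all measured genes, and 5 of 6 were positive, beside 43.4% of all measured genes. The members were proposed with results of these arrays in view and passed the background filter on these arrays, so these counts describe them and support nothing further.

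Signals below are processed signals in intensity units before scaling. Ratios are the Na2S3 array over the water array after each array was divided by its own 75th percentile over non-control probes (478 and 413), which takes 0.21 off every unscaled log2 ratio. The 7 spike-in probes gave a shift of 0.18 between the arrays. The Na2S3 array had 49.0% and the water array 49.5% of probes well above background. The lowest probe mean counted as well above background was 20.5 in the Na2S3 array and 18.3 in the water array. These values are no cutoff, since some probes not counted so read higher. Error here means spot error, taken from the spread of log2 ratios among repeat spots of the probes nearest in signal. That spread is divided by the square root of the number of positions of the probe in question. Dim single-spot probes share 1 value: Il33 (36.0 in the Na2S3 array, 23.5 in the water array) and Rhbdf2 (256 and 172) both have 0.16. At low signal the error is thus only loosely matched to signal, and whether it is too small there was not tested. Spot error covers variation from spot to spot within this pair of arrays. Differences between whole arrays, RNA samples or cultures are not in it. A level depends on its probe and is compared between the arrays, not between genes.

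Epithelial identity was checked against markers of intestinal epithelium, of which 5 of 12 with a probe were measured on both arrays, with log2 ratios of -0.23 to 0.02. Cdh1, the E-cadherin gene, had 16264 in the Na2S3 array and 14702 in the water array, and Krt8, a simple-epithelium keratin gene, had 18283 and 15892 in the same order. Epcam, Vil1, Cdx2, Krt20, Cldn4, Lgr5 and Fabp2 did not stand well above background on any array, so several defining enterocyte markers were not measured. Fibroblast and mesenchymal genes were measured for 7 of 8 markers, with log2 ratios of -0.43 to 0.03. Col1a1 had 70180 in the Na2S3 array and 71687 in the water array, and Vim had 45377 and 38714 in the same order. Thy1 and Acta2 were dim, with 117 and 63.0 in the Na2S3 array. Of 5 endothelial markers, 3 were measured, with log2 ratios of -0.35 to -0.02. Markers alone thus do not settle epithelial identity here. Of 9 immune markers, Ptprc, Cd68 and Cd14 were measured, with log2 ratios of -0.32, -0.27 and 0.07. Itgam, Adgre1, Cd3e, Lyz2, Aif1 and Csf1r were not well above background on either array. Of the markers measured on both arrays, endothelial ones included, 0 differed by 2-fold, and their part in the results below was not tested. In bulk RNA, fewer cells of a type and less RNA per cell cannot be told apart.

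**Figure D1:**
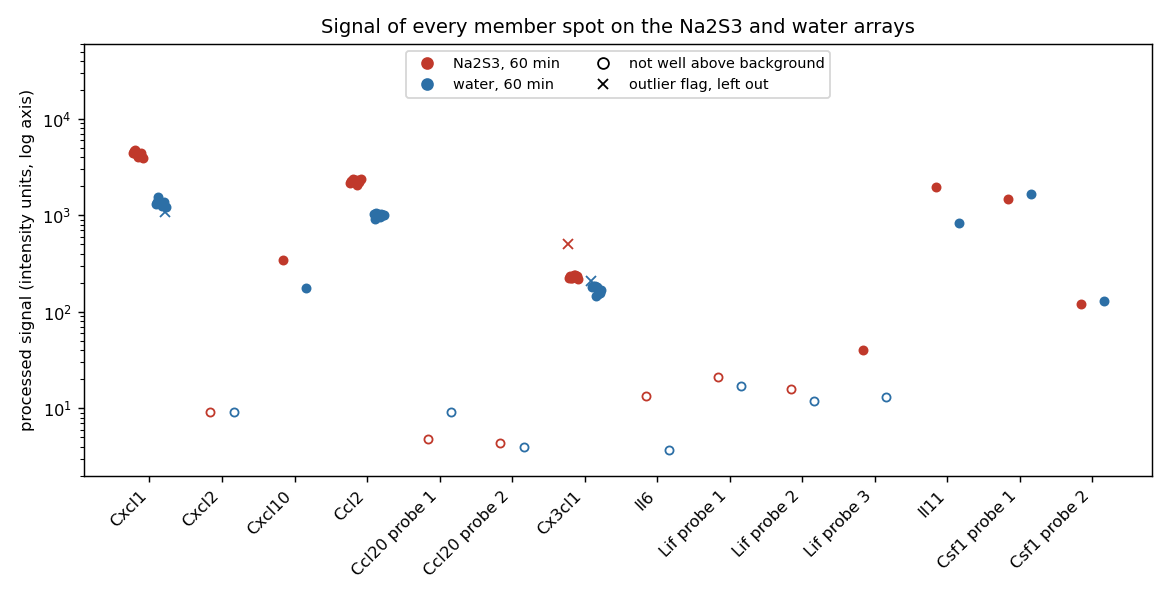
Processed signal (intensity units, log axis) of every spot of the 14 member probes, Na2S3 array left and water array right at each probe. Filled points were well above background, open points were not, and crosses carried an outlier flag and were left out. Of the members measured on both arrays, Cxcl1, Ccl2, Cx3cl1, Cxcl10 and Il11 have every kept Na2S3 spot above every kept water spot. For Cxcl10 and Il11 that is 1 spot per array. Csf1 has the Na2S3 spot slightly below the water spot at both probes, and Cxcl2, Ccl20 and Il6 are open on both arrays.

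Cxcl1, the rat neutrophil chemokine also called CINC-1, had the highest ratio of the 6 members measured on both arrays. Its probe (rn4 chr14:18690468-18690527, minus strand) is spotted 10 times. Kept spots read 3948, 4344 and 4722 (lowest, median, highest of 10) in the Na2S3 array, against 1211, 1328 and 1535 (of 9) in the water array. The spot ranges do not overlap, and the lowest Na2S3 spot is more than double the highest water spot. The log2 ratio was 1.48. Taken spot position by spot position, it ran from 1.41 to 1.55 with an SD of 0.04 over 9 positions, and all 9 were past 2-fold. It ranked 46 from the top among 13062 genes.

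Cxcl2, the neutrophil chemokine gene next to Cxcl1 on chromosome 14, gave no measurement. Its single spot read 9.16 in the Na2S3 array and 9.10 in the water array, well above background on neither. Cxcl3, the third gene of this neutrophil chemokine group in the rat, lies close by and is not a member. It read 6881 in the Na2S3 array and 3501 in the water array at 1 probe, and 1514 and 724 in the same order at the other. Its log2 ratios of 0.77 and 0.86, with spot errors of 0.09 at both probes, point the same way as that of Cxcl1 but stay under 2-fold. These genes are close paralogs, and cross-hybridisation between their probes was not tested.

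The start regions of Cxcl1 and Cxcl2 are shown because the neighbours carry the same kind of site at a similar place. Only Cxcl1 of the pair was well above background. Each RefSeq window (GRCr8, from 250 bases before the transcription start to 50 after, 5′ to 3′ on the gene's strand) has matches to the NF-kB consensus and to AP-1 in capitals. Cxcl1 is on the minus strand at chr14:17479272-17479571, and Cxcl2 on the minus strand at chr14:17467206-17467505.
Cxcl1: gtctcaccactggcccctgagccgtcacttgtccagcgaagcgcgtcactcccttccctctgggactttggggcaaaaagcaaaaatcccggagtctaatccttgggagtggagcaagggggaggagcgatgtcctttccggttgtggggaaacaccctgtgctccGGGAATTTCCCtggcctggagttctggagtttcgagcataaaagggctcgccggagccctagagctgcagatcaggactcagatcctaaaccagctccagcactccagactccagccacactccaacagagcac
Cxcl2: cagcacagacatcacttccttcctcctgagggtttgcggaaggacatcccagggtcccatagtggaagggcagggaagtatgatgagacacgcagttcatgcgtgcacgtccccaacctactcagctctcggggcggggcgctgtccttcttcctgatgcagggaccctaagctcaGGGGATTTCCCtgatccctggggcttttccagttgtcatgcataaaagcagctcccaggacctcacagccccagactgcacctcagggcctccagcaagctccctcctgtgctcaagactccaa

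The capitals in both windows are runs in which 2 overlapping frames match the NF-kB consensus, starting at -84 and -83 in Cxcl1 and at -74 and -73 in Cxcl2. On either strand, 7.51% of 33469 rat windows of this length hold a match to that consensus. Of the members, 7 have a window in the table, and Cxcl1, Cxcl2, Cxcl10, Ccl20 and Il6 (5 of 7) hold a match. Ccl20 and Il6, like Cxcl2, were not well above background on either array. A match is a description of letters in the window and says nothing of binding.

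Cxcl10, an interferon-inducible chemokine gene whose product attracts activated T cells, read 347 in the Na2S3 array and 175 in the water array. It is read by 1 spot per array (rn4 chr14:17267994-17268053, plus strand). The log2 ratio was 0.78 with a spot error of 0.16, rank 205, and it stood at 0.59 with normexp background correction. Its immediate neighbours on chromosome 14, Cxcl11 and Cxcl9, encode ligands of the same receptor, CXCR3. Cxcl11 read 10.5 in the Na2S3 array and 4.28 in the water array, and Cxcl9 6.09 and 13.9 in the same order, none well above background. The gene of their receptor, Cxcr3, stood clear of background only after Na2S3, with 35.9 in the Na2S3 array against 15.0 in the water array on 1 spot, at least 1.70-fold higher.

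Il11, an IL-6 family cytokine gene whose product acts on epithelium and stroma in the gut, was the second member past 2-fold. Its single spot (rn4 chr1:67792503-67792562, plus strand) read 1980 in the Na2S3 array and 840 in the water array. The log2 ratio was 1.03 with a spot error of 0.08, so its distance from the 2-fold line is smaller than the spot error. It ranked 117 from the top.

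The windows of Cxcl10 and Il11 are shown because they hold the only matches to the AP-1 motif TGANTCA among the 7 members. Both lie on the plus strand, Cxcl10 at chr14:15988816-15989115 and Il11 at chr1:78098372-78098671 (GRCr8), with NF-kB consensus and AP-1 matches in capitals.
Cxcl10: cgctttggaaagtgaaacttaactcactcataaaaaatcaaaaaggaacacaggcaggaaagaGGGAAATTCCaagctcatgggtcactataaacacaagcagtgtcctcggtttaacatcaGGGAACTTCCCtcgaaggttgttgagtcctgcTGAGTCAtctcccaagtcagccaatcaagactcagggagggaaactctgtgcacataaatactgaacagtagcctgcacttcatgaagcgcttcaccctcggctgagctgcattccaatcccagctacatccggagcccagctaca
Il11: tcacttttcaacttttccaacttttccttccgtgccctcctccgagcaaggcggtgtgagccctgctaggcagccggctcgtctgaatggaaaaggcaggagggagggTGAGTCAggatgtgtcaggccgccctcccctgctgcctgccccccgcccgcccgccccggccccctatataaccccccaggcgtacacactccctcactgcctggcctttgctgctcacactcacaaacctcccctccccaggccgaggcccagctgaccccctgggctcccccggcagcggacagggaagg

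In Cxcl10 the capitals are NF-kB consensus matches at -187 and, in 2 overlapping frames, at -128 and -127, and an AP-1 match at -96. In Il11 the only capitals are the AP-1 match at -142. An AP-1 match occurs in 7.33% of all windows. Of the other motifs searched on both strands, the interferon response element (GAAA, any 2 bases, GAAA) was found in Cxcl10 (at -243, in 3.92% of all windows). The antioxidant element TGACNNNGC was also found in Cxcl10, at -98, where it overlaps the AP-1 match (12.1% of all windows). The cAMP element TGACGTCA was found in Il6 (at -162, 1.83% of all windows). The STAT motif TTCNNNGAA was found in 0 of 7 (8.87% of all windows). The Cx3cl1 window held no match to any of these motifs.

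Ccl2, the monocyte chemokine also called MCP-1, was measured by a probe spotted 10 times (rn4 chr10:70257919-70257978, plus strand). The spots read 2073, 2286 and 2391 (lowest, median, highest) in the Na2S3 array, against 927, 1019 and 1060 in the water array. The ranges do not overlap. The log2 ratio was 0.96, and by position it ran from 0.87 to 1.07 with an SD of 0.06 over 10 positions, 2 of them past 2-fold. All 10 positions were higher in the Na2S3 array. Unscaled, the log2 ratio was 1.17, so whether Ccl2 passes 2-fold turns on the scaling between the arrays.

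Ccl7, which encodes another monocyte chemokine and lies next to Ccl2 on chromosome 10, stood clear of background only after Na2S3. Its pair of spots read 30.0 and 35.6 in the Na2S3 array, against 17.9 and 7.10 at the same positions in the water array. By position the log2 ratios were 0.54 and 2.12, with an SD of 1.12. The probe mean was at least 1.54-fold higher, a bound that the first position alone does not reach. Ccl20, which draws CCR6-bearing lymphocytes and dendritic cells to gut epithelium, was not well above background at either probe. It read 4.82 and 4.33 in the Na2S3 array, against 9.14 and 3.93 in the water array.

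Cx3cl1 encodes fractalkine, a membrane-anchored chemokine that ADAM proteases release. Its probe (rn4 chr19:10667029-10667088, minus strand) is also spotted 10 times, of which 1 position carried an outlier flag on both arrays. The 9 kept spots read 218, 234 and 244 (lowest, median, highest) in the Na2S3 array, against 147, 167 and 186 in the water array. The ranges do not overlap, and the difference is small. The log2 ratio was 0.26, with position values from 0.07 to 0.47 and an SD of 0.15, and all 9 were positive. The position left out read 510 in the Na2S3 array and 208 in the water array, and with it the ratio was 0.34. With normexp the ratio was 0.17.

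**Figure D2:**
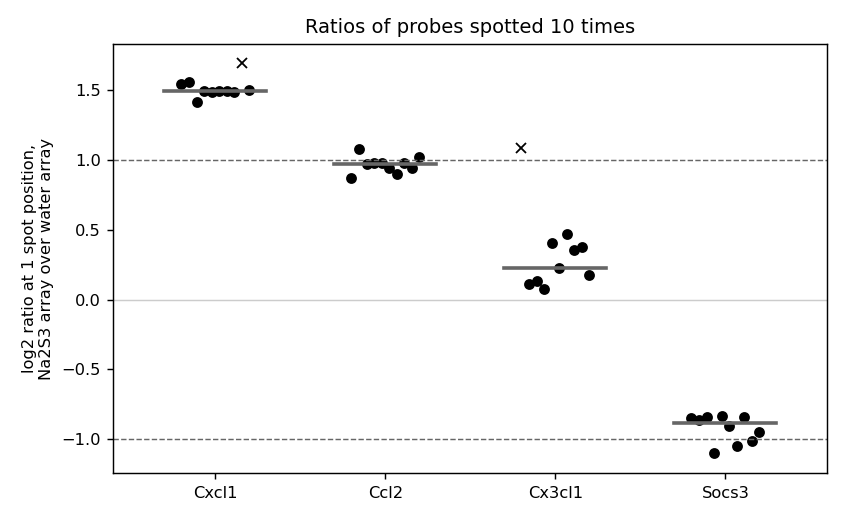
Log2 ratio (Na2S3 array over water array) at each spot position of the probes spotted 10 times for Cxcl1, Ccl2, Cx3cl1 and Socs3. Points are kept positions, crosses are positions with an outlier flag on either array, bars are medians of the kept positions and dashed lines mark 2-fold. Cxcl1 lies wholly above 2-fold, Ccl2 lies around the line, Cx3cl1 lies between 0.07 and 0.47, and Socs3 lies between -1.10 and -0.83.

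Cx3cl1 sits between Ccl17 and Ccl22 on chromosome 19, genes of chemokines that act on CCR4. Ccl17 was below background on both arrays. Ccl22 had 3 measured probes that differ: the brightest read 1052 in the Na2S3 array and 1754 in the water array (log2 ratio -0.95), while the dim ones gave -0.13 and 0.11 with spot errors of 0.16. Cx3cr1, the fractalkine receptor gene, read 387 in the Na2S3 array and 499 in the water array, a log2 ratio of -0.58 with a spot error of 0.11 at the only measured probe.

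Lif, leukemia inhibitory factor, an IL-6 family cytokine that acts through LIFR and gp130, has 3 probes that did not read alike. Lif probe 3, designed on the RefSeq transcript, read 40.6 in the Na2S3 array, well above background, and 13.2 in the water array, which was not. That puts it at least 1.92-fold higher. Of 27235 genes with a probe, 1.69% cleared background only after Na2S3, and 0.628% did so with a bound of 1.5-fold or more. Lif probe 1, designed on a GenBank cDNA record, read 20.9 in the Na2S3 array and 17.1 in the water array, and Lif probe 2, on a predicted transcript, read 15.8 and 11.9 in the same order. With normexp the unfiltered log2 ratio of probe 3 was 0.27, against 1.41 without it, so the size at this low signal depends on how background is removed.

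Probes 1 and 3 of Lif are shown because they cover nearly the same stretch (rn4 chr14:84890560-84890619 and chr14:84890562-84890621, plus strand) and yet differ in status. Capitals mark the bases at which they differ.
Lif probe 3: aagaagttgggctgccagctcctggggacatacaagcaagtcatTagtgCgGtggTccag
Lif probe 1: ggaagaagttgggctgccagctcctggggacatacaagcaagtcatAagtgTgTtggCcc

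The probes share 58 aligned bases, of which 54 are identical. The 4 substitutions, counted from 1 at the 5′ end of probe 3 and giving its base first and that of probe 1 second, are T45A, C50T, G52T and T56C. All 4 lie towards the 3′ end of the 60-base probes. Whether they bear on the difference in status was not tested.

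Il6, the founding member of its family and a driver of the acute phase response, was at background on both arrays. Its single spot read 13.5 in the Na2S3 array and 3.72 in the water array, so no fold is given. Osm, the oncostatin M gene, is the neighbour of Lif on chromosome 14 and belongs to the same family. It was well above background in the water array alone at both probes. The first read 9.20 in the Na2S3 array and 34.3 in the water array, at least 1.93-fold lower. The other read 18.1 in the Na2S3 array and 20.4 in the water array, at least 1.15-fold lower.

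Csf1, macrophage colony-stimulating factor, was the only measured member with a negative ratio. Csf1 probe 1 (rn4 chr2:203292994-203293053, minus strand) read 1478 in the Na2S3 array and 1652 in the water array. Csf1 probe 2, on a predicted transcript variant (rn4 chr2:203296273-203296332, minus strand), read 119 and 130 in the same order. The log2 ratios were -0.37 and -0.33, with spot errors of 0.08 and 0.16. The probes point the same way, and unscaled the ratio of probe 1 was -0.16. Csf1r, the receptor gene, was below background on both arrays.

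**Figure D3:**
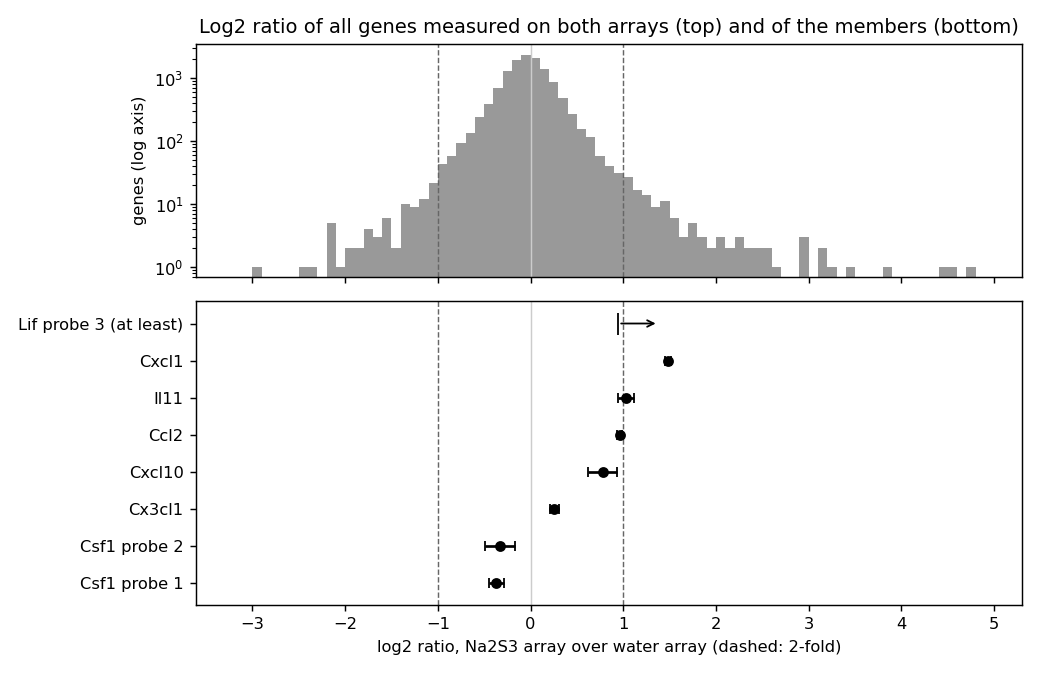
Top, histogram of the log2 ratio (Na2S3 array over water array) of the 13062 genes measured on both arrays, on a log count axis. Bottom, the member probes measured on both arrays with their spot error as bars, and the lower bound of Lif as an arrow; dashed lines mark 2-fold. Cxcl1 at 1.48 and Il11 at 1.03 lie right of the 2-fold line, Ccl2 at 0.96 just left of it, and both Csf1 probes left of 0.

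The 6 measured members, from highest to lowest ratio, were Cxcl1, Il11, Ccl2, Cxcl10, Cx3cl1 and Csf1. Il11 and Ccl2 are 0.07 apart, which is within the spot error of Il11, so their order is not settled. Ccl2 and Cxcl10 are 0.19 apart, against a spot error of 0.16 for Cxcl10. Cxcl1, Cx3cl1 and Csf1 stand apart from their neighbours in this order by more than their spot errors.

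Other chemokine genes showed no shared shift. Of 12 further CXC, C and CX3C genes with a probe, 5 were measured and 0 passed 2-fold either way, with a median log2 ratio of -0.02. Beside Cxcl3, the homeostatic chemokine Cxcl12 had -0.41 (152 in the Na2S3 array, 175 in the water array), Cxcl14 had -0.18 and Cxcl16, a transmembrane chemokine, -0.02. Of 18 further CC genes, 3 were measured and 0 passed 2-fold, with a median of -0.23. Ccl27 had -0.23 and Ccl5 had 0.10. Ccl19, a lymphoid chemokine gene, cleared background only after Na2S3, with 51.7 against 12.4 in the water array on 1 spot, at least 2.44-fold higher.

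Within the IL-6 family, Clcf1, whose product signals through the CNTF receptor, read 2341 in the Na2S3 array and 1193 in the water array. Its log2 ratio of 0.76, with a spot error of 0.08, falls short of 2-fold. Ctf1, the cardiotrophin gene, had -0.24, and Cntf had -0.01. Of 8 further family genes with a probe, 3 were measured and 0 passed 2-fold.

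Receptor genes of the family were measured for the subunits that bind IL-6 and IL-11 but not for those of LIF and oncostatin M. Il6st, which encodes gp130, had -0.08 and -0.49 at its probes, Il6r -0.15 and Il11ra1 0.03. Lifr and Osmr were not well above background on either array. Of 22 chemokine and CSF1 receptor genes with a probe, 6 were measured, 15 were well above background on neither array and 0 passed 2-fold. The atypical receptor genes Ackr4 and Ackr3 had -0.42 and 0.19, and Cxcr5 had -0.32.

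Downstream of gp130, 14 of 17 signalling and feedback genes were measured and 0 passed 2-fold, with a median of -0.06. Socs3, the feedback inhibitor of gp130 signalling, stood lowest. Its probe spotted 10 times read 505, 536 and 626 (lowest, median, highest) in the Na2S3 array, against 821, 932 and 971 in the water array. The spot ranges do not overlap. The log2 ratio was -0.92, by position from -1.10 to -0.83 with an SD of 0.10, and the other probe gave -0.55. The remaining genes stayed close to 0, with Cish at -0.30, Stat5b at 0.28 and Jak1 at -0.23 (0.06 at its other probe).

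Of the NF-kB subunit, kinase and inhibitor genes, 12 were measured. Of these, 1 passed 2-fold higher and 0 lower, beside 0.942% and 0.62% of all measured genes. The median was 0.18, beside -0.04 for all measured genes, and 9 of 12 were positive, beside 43.4%. Tnfaip3, which encodes the NF-kB inhibitor A20, read 102 in the Na2S3 array and 42.5 in the water array on 1 spot. Its log2 ratio was 1.06 with a spot error of 0.16, and 0.52 with normexp, which ends the 2-fold call. Nfkbiz, a nuclear cofactor gene for a subset of cytokine genes, had 0.70, Nfkbie 0.43 and Relb 0.26. With normexp these ratios were 0.52, 0.25 and 0.27 in the same order. Spot errors were 0.16 for Nfkbiz and Nfkbie and 0.09 for Relb.

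**Figure D4:**
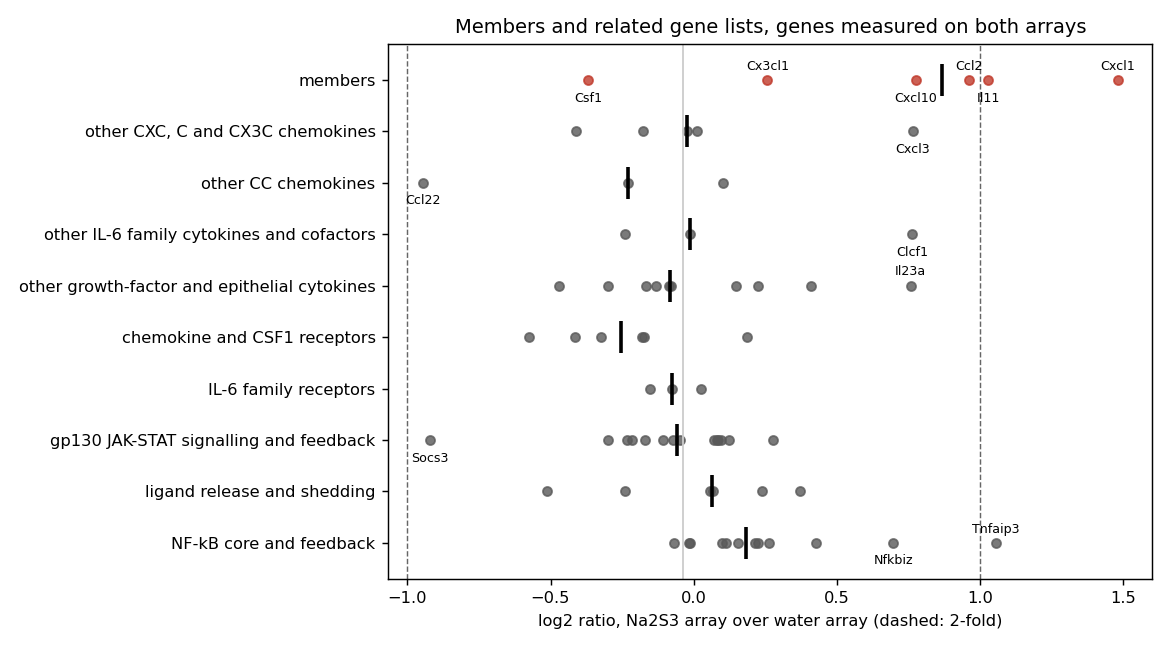
Log2 ratio (Na2S3 array over water array) of each gene measured on both arrays, for the members (red) and 9 related gene lists (grey). Each point is 1 gene, vertical bars are list medians, dashed lines mark 2-fold and the grey line is the median of all measured genes; members and the genes farthest from 0 are named. Outside the members, Tnfaip3 lies past 2-fold, Cxcl3, Clcf1 and Il23a lie near 0.76, and Ccl22 and Socs3 lie near -0.9.

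The ratios of Cxcl10 and Cx3cl1 depended most on the processing. Over 9 other ways of processing the arrays, all of which scale between them, Cxcl1 ran from 1.45 to 1.54, Il11 from 1.01 to 1.05, Ccl2 from 0.94 to 0.99, Cxcl10 from 0.59 to 0.80, Cx3cl1 from 0.17 to 0.38 and Csf1 from -0.37 to -0.34.

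**Figure D5:**
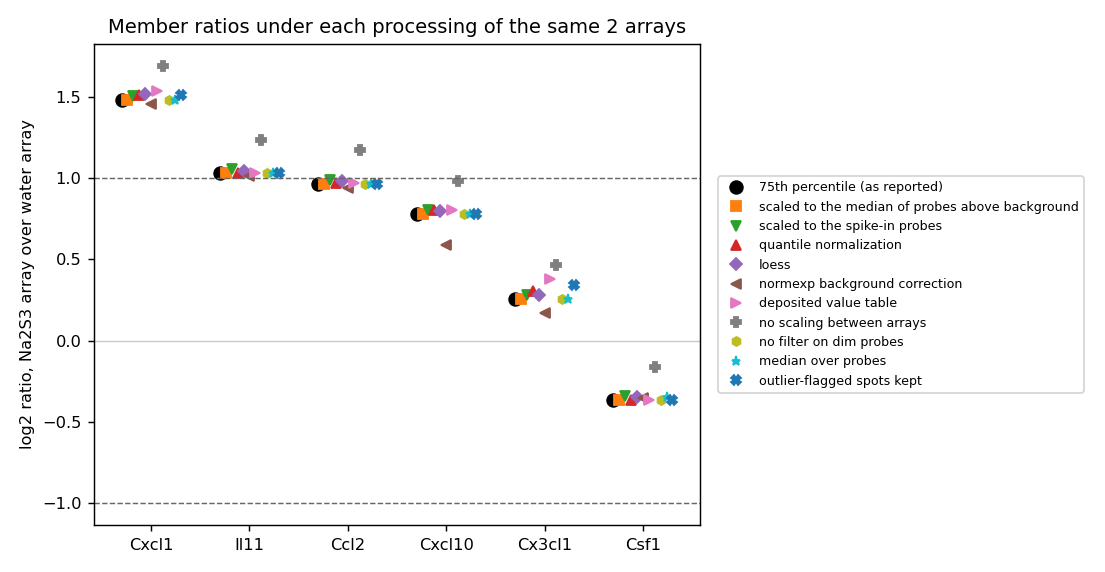
Log2 ratio (Na2S3 array over water array) of the 6 measured members under each processing of the same arrays; black circles are the values reported, other symbols the alternatives in the legend, and dashed lines mark 2-fold. Every member keeps its sign in all settings drawn, and Ccl2 crosses 2-fold only with no scaling between the arrays, at 1.17.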

How the data were processed

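The file headers place the arrays on 1 slide with 1 scan date. The scanner files hold linear intensity values from 1 channel, background-subtracted and detrended by Agilent Feature Extraction 10.7.1.1, per the file headers, whereas the submitters' processing notes name 9.5.1.1. The authors' deposited value table gives intensity on a linear scale, normalized in an unstated way. Its columns share a median of 19.3 and follow the processed signal of their own arrays (r = 0.99997 for both, log2 scale, over probes), so scale and direction are known.

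Spots with outlier flags were left out (390 on the Na2S3 array, 448 on the water array), and 0 were saturated. Log2 processed signal was averaged per probe and scaled to the 75th percentile. A probe counted as well above background when over 50% of its spots carried that flag, and a gene's value is its brightest such probe. For genes above background on 1 array, the bound uses the higher of the dim probe's signal and the lowest signal well above background. It is not a strict limit, since some probes without the flag read above that lowest signal. Lif probe 1, for example, read 20.9 in the Na2S3 array, where the lowest was 20.5. How normexp changes a bounded gene was looked at for Lif alone. Spot errors pool the variance of the 200 repeat probes nearest in signal, divided by the probe's number of positions before the square root is taken. Names came from RefSeq (GRCr8) accessions or the file. Motif and promoter coordinates are GRCr8, and probe coordinates are rn4, as the file headers name it.

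With 1 array per group no test applies. Genes were counted as 2-fold different at a log2 ratio of at least 1 or at most -1. The members and lists were chosen with earlier results of these data known. Beside the members, the text names list genes past 2-fold, up to 4 with the largest ratio either way per list, and genes above background on a single array whose bound reached 1.5-fold. Other genes named (neighbours, receptors and markers) were chosen after their values were seen. Python 3.11.15 and limma 3.58.1 in R 4.3.3 were used. One further immune marker is not reported here.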

Additional observations from a re-analysis of the deposited data

How the results depend on the processing

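The number of arrays, 1 per group, limits every value, and spot error leaves out differences between whole arrays, RNA samples and cultures. Of 54 member ratios under 9 alternatives, 8 moved by more than the spot error and 0 changed sign. Of the others, 17 equal the reported value to 4 decimals, and the filter and the summary over probes cannot alter most measured members, so this tally is no measure of stability. Cx3cl1 moved with normexp (0.17), the deposited table (0.38) and outlier spots kept (0.34), and all 6 moved with no scaling. The counts of members at least 2-fold higher (2) and lower (0) held under 7 of the 8 alternatives run for them. The exception was no filter on dim probes, where 4 were higher and 1 lower. Il6 and Ccl20 then count though well above background on neither array, and Lif though so on the Na2S3 array alone. Over all genes, 123 were at least 2-fold higher and 81 lower. Normexp background correction gave 61 and 31. No filter gave 1062 and 1545, so that the share of higher genes went to 40.7%, against 60.3% with the filter. With no scaling between arrays, an alternative added after the ratios were seen, the counts were 195 and 47 and the share 80.6%, which the shift of 0.21 in every ratio produces, and 3 members were higher. The cause of the normexp difference was not tested. No paired analysis was possible because each group has 1 array.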

Other observations

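Other cytokine genes of epithelium and myeloid cells were described for comparison. Of 21 with a probe, 10 were measured and 0 passed 2-fold either way, with a median log2 ratio of -0.08. Il23a, a subunit of interleukin 23, read 61.1 in the Na2S3 array and 31.3 in the water array (log2 ratio 0.76, and 0.19 with normexp). Il33, an alarmin gene, had 0.41 and, with normexp, 0.01. Il1rn, the interleukin 1 receptor antagonist gene, is spotted 10 times, and its spots read 3707, 4037 and 4420 (lowest, median, highest) in the Na2S3 array, against 4541, 4896 and 5281 in the water array. Those ranges do not overlap, and its log2 ratio was -0.47. Csf3, the granulocyte growth factor gene, had -0.30. Il1a, Il1b and Tnf were not well above background on either array.

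Genes for the release and trimming of ligands had 6 measured of 8, with 0 past 2-fold and a median of 0.06. Adam10 and Adam17, whose proteases shed fractalkine among other ligands, had -0.24 and 0.06, and Adam10 had -0.05 at its other probe. Rhbdf2 and Rhbdf1, whose products guide ADAM17 to the cell surface, had 0.37 and 0.24. Dpp4, a peptidase gene whose product trims chemokines such as CXCL10, had -0.51 with a spot error of 0.16.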
